A study of Homo sapiens with 6 samples.

Results

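The pseudokinase gene PRAG1 was examined together with 9 genes of the signalling network around it in the C4-2 prostate cancer cell line. The 10 genes are PRAG1, its relative PEAK1, the kinase gene CSK, the Src-family kinase genes SRC, YES1, FYN and LYN, and the adaptor genes CRK, GRB2 and SHC1. They were matched by symbol to the gene identifiers of the deposited count tables, and 10 of 10 were found among 62696 gene rows. The group was chosen by results measured in these same libraries: PRAG1 was selected on its lower count in the knockout libraries, and the others for their known ties to it. Their values are therefore given as descriptions and without p-values, and the number of them that the fit across all genes called is shown only beside the share of all genes called.

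PRAG1 and PEAK1 encode large scaffold proteins with a kinase-like fold that does not work as a normal kinase. Phosphorylated tyrosines on these scaffolds are docking sites for SH2-domain proteins, among them CSK and GRB2. The adaptors CRK and SHC1 also bind such scaffolds, and the scaffolds pair with each other. Src-family kinases phosphorylate such scaffolds at focal adhesions and beneath growth factor receptors, and CSK restrains Src-family kinases by phosphorylating their inhibitory tail tyrosine.

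C4-2 is an androgen-independent human line derived from LNCaP prostate cancer cells. The study compared 3 libraries of C4-2 cells whose CDK12 gene was knocked out with CRISPR-Cas9 with 3 libraries of C4-2 cells carrying the vector, whose genotype is labelled WT. CDK12 encodes a kinase of elongating RNA polymerase II. Both groups were grown in RPMI1640 medium with 10% FBS and are labelled as untreated. The title of the series speaks of knockdown and its design text of knockout. The labels give neither the guide nor the number of clones, and they do not say that the replicates were separate cultures, so the spread between libraries may be technical. RNA was taken in bulk, and fewer cells of a type and less RNA per cell cannot be told apart.

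The libraries held 26357250 to 30732841 reads in the knockout group and 24660798 to 25879375 in the vector group, of which 16617644 to 21590817 per library were counted in genes over all 6. Knockout library 2 stood apart: its log2 CPM (the reads of a gene relative to the TMM-scaled total of its library) correlated across genes with the other libraries at r = 0.916 to 0.950, against 0.977 to 0.990 among the other 5. Fold changes are therefore given both with all 6 libraries and without it. It was the lowest of the 6 libraries for 39.6% of tested genes and the highest for 37.4%. Its TMM scaling factor was 0.737, against 1.04 to 1.10 in the other 5, which raises its CPM relative to theirs. Luminal prostate markers were present in every library (10 of 10, none under 92.7 CPM). Leukocyte markers, which matter because FYN and LYN are active in blood cells, summed to 0.0944 to 0.724 CPM over 6 genes in the knockout libraries and 0.495 to 2.97 CPM in the vector libraries, and PTPRC, CD3E, CD68 and LYZ had 0 reads in all 3 knockout libraries. Fibroblast markers summed to 25.5 to 32.4 CPM over 6 genes in the knockout libraries and 22.7 to 24.6 CPM in the vector libraries, endothelial markers to 6.61 to 10.3 and 4.56 to 5.12 CPM over 3 genes, and basal epithelial markers to 0.283 to 1.70 and 0.560 to 0.769 CPM over 3 genes.

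CDK12 itself read 60.8, 56.9 and 56.5 CPM in knockout libraries 1 to 3 and 60.2, 48.0 and 57.1 CPM in vector libraries 1 to 3. The ranges overlapped, and the log2 fold change of knockout over vector was 0.08 ± 0.13 (SE; edgeR quasi-likelihood test, adjusted p = 0.709). Without knockout library 2 it was 0.08 ± 0.09 (edgeR adjusted p = 0.600). A count over the entire gene carries no information on its reading frame, so this value does not check the knockout.

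PRAG1 mRNA was 10.0-fold lower in the knockout libraries. The gene (ENSG00000275342.5) lies on the minus strand of chromosome 8 at 8317736 to 8386498 (GRCh38, GENCODE 29), and its protein, also called pragmin, binds CSK and was described as an effector of the GTPase RND2. It had 95, 26 and 77 reads in knockout libraries 1 to 3 and 523, 694 and 675 reads in vector libraries 1 to 3. The highest knockout library stayed far below the lowest vector library. In CPM these were 4.49, 1.64 and 3.98 in the knockout group and 26.8, 38.9 and 37.1 in the vector group, with means of 3.37 ± 1.52 and 34.2 ± 6.53 (SD, n = 3 each). The log2 fold change was -3.33 ± 0.36 (SE) over all 6 libraries. Without knockout library 2, which had the lowest count, it was -3.01 ± 0.17, or 8.08-fold lower. By log2 fold change PRAG1 stood 14th from the lowest of 15783 tested genes, and 28th of 16339 without that library. The 2 strand-specific counts of PRAG1 added up to the unstranded one in all 6 libraries.

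PEAK1, the scaffold relative that pairs with PRAG1, was almost absent from both groups. The gene (ENSG00000173517.11) spans 77100656 to 77420144 on the minus strand of chromosome 15, with 24184 exonic bases. It had 1, 7 and 7 reads in knockout libraries 1 to 3 and 1, 3 and 2 reads in vector libraries 1 to 3. The groups overlapped, and the sums of 15 and 6 reads were under the filter on low counts, so PEAK1 was not tested. PEAK3, the third member of the family, belonged to the pathway lists described further on and is named here after its values were seen. It averaged 0.484 ± 0.267 CPM in the knockout libraries and 0.672 ± 0.393 CPM in the vector libraries (SD, n = 3 each). Per kilobase of exon, PEAK3 had 0.188 CPM in the knockout libraries and 0.261 CPM in the vector libraries, so that PRAG1, at 0.687 and 6.98, was the highest of the 3 family members in both groups.

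CSK, the kinase that PRAG1 binds and that restrains the Src family, was the most abundant of the 10 genes per kilobase. The gene (ENSG00000103653.17) lies on the plus strand of chromosome 15 at 74782057 to 74803198. It read 157, 214 and 145 CPM in knockout libraries 1 to 3 and 146, 148 and 136 CPM in vector libraries 1 to 3. Knockout library 2 was the highest of the 6, and knockout library 3 lay inside the vector range. Its log2 fold change was 0.26 ± 0.17 (SE) with all 6 libraries and 0.07 ± 0.07 without knockout library 2.

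**Figure D1:**
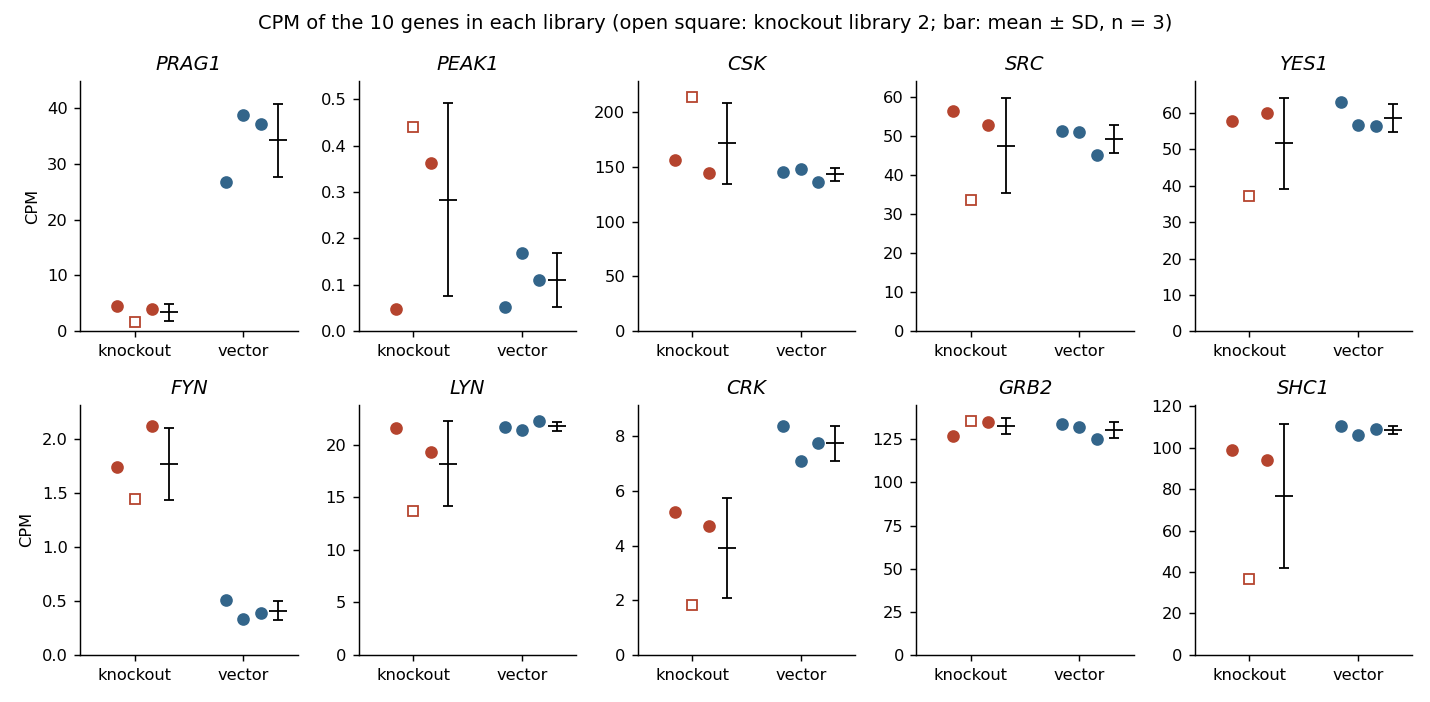
CPM of each of the 10 genes (1 panel each, linear axis from 0) in the knockout and vector libraries, as points with the mean and SD (n = 3 each); the open square is knockout library 2. PRAG1 lies between 1.64 and 4.49 CPM in the knockout libraries and between 26.8 and 38.9 CPM in the vector libraries, while FYN lies higher in the knockout libraries and the ranges of 6 genes overlap.

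Of the 4 Src-family kinases, FYN was higher in the knockout libraries, and SRC, YES1 and LYN overlapped between the groups. FYN (ENSG00000010810.17, chromosome 6, 111660332 to 111873452, minus strand) encodes a Src-family kinase best known from T cells and neurons. It had 37, 23 and 41 reads in knockout libraries 1 to 3 and 10, 6 and 7 reads in vector libraries 1 to 3. All 3 knockout libraries were above all 3 vector libraries, including knockout library 2. The means were 1.77 ± 0.337 CPM in the knockout group and 0.411 ± 0.0908 CPM in the vector group (SD, n = 3 each). The log2 fold change was 2.09 ± 0.35 (SE), or 4.25-fold higher, and 2.20 ± 0.44, or 4.60-fold, without knockout library 2. These ratios rest on few molecules, with 101 reads over the knockout group and 23 over the vector group. The fibroblast and endothelial marker sums given above were also higher in the knockout libraries, and their part in the FYN difference was not tested.

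SRC (ENSG00000197122.13, chromosome 20, 37344685 to 37406050, plus strand), the founding kinase of the family, read 56.3, 33.7 and 52.7 CPM in the knockout libraries and 51.4, 51.0 and 45.0 CPM in the vector libraries. Knockout library 2 was the lowest of the 6, while the other 2 knockout libraries lay just above all vector libraries. Its log2 fold change was accordingly -0.05 ± 0.20 (SE) over all 6 libraries and 0.14 ± 0.09 without knockout library 2. YES1 (ENSG00000176105.14, chromosome 18, 721588 to 812546, minus strand), the closest relative of SRC, read 57.8, 37.3 and 60.0 CPM in the knockout libraries and 63.2, 56.7 and 56.4 CPM in the vector libraries. Again knockout library 2 alone was low, and the log2 fold change was -0.19 ± 0.19 with it and -0.00 ± 0.08 without it. LYN (ENSG00000254087.8, chromosome 8, 55879813 to 56014168, plus strand), best known from B cells and also made in epithelial cells, read 21.6, 13.7 and 19.3 CPM in the knockout libraries and 21.8, 21.4 and 22.3 CPM in the vector libraries. The highest knockout library reached the vector range, and the log2 fold change was -0.26 ± 0.19 with all libraries and -0.10 ± 0.11 without knockout library 2.

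Within the summed reads per kilobase of these 4 kinases, the proportions of the 3 abundant ones moved little. YES1 made up 49.0 ± 1.39% in the knockout libraries and 50.8 ± 1.23% in the vector libraries, and SRC 35.5 ± 0.979% and 33.5 ± 1.48% (SD, n = 3 each). LYN made up 14.3 ± 0.815% in the knockout libraries and 15.6 ± 0.965% in the vector libraries. FYN stayed the smallest share, at 0.992, 1.31 and 1.23% in knockout libraries 1 to 3 and 0.289, 0.201 and 0.240% in vector libraries 1 to 3. The shares of FYN did not overlap between groups, and knockout library 2 did not stand apart in them. The summed kinase reads per kilobase, relative to those of CSK, were 0.693, 0.319 and 0.737 in the knockout libraries and 0.750, 0.696 and 0.727 in the vector libraries. On this ratio knockout library 2 alone was low, and libraries 1 and 3 lay in or beside the vector range.

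Other blood-cell members of the family were low or at 0, and 3 of them are named here after their values were seen. LCK averaged 1.34 ± 0.182 CPM in the knockout libraries and 1.60 ± 0.491 CPM in the vector libraries (SD, n = 3 each). FGR and BLK had 0 reads in all 6 libraries.

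Among the adaptors, CRK was lower in the knockout libraries, GRB2 overlapped, and SHC1 depended on how reads in overlapping genes were counted. CRK (ENSG00000167193.8, chromosome 17, 1420689 to 1463162, minus strand) encodes an SH2 and SH3 adaptor that recruits the exchange factors RAPGEF1 and DOCK1. It had 111, 29 and 91 reads in knockout libraries 1 to 3 and 164, 127 and 141 reads in vector libraries 1 to 3. All knockout libraries were below all vector libraries, and knockout library 2 was far below the other 2. The means were 3.92 ± 1.84 CPM in the knockout group and 7.75 ± 0.641 CPM in the vector group (SD, n = 3 each). For CRK the log2 fold change was -0.97 ± 0.36 (SE), or 1.96-fold lower, and -0.65 ± 0.18, or 1.56-fold lower, without knockout library 2. Its paralog CRKL, named here after its values were seen, was far more abundant, at 55.7 ± 14.2 CPM in the knockout libraries and 67.3 ± 5.55 CPM in the vector libraries (SD, n = 3 each).

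GRB2 (ENSG00000177885.15, chromosome 17, 75318076 to 75405709, minus strand), which links phosphorylated scaffolds to the Ras exchange factor SOS, read 127, 136 and 135 CPM in the knockout libraries and 134, 132 and 125 CPM in the vector libraries. The ranges overlapped, with a log2 fold change of 0.03 ± 0.11 (SE), or 0.00 ± 0.07 without knockout library 2.

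SHC1 (ENSG00000160691.19, chromosome 1, 154962298 to 154974395, minus strand) encodes a phosphotyrosine adaptor upstream of GRB2. It read 99.0, 36.7 and 94.0 CPM in the knockout libraries and 110.2, 106 and 109 CPM in the vector libraries, so the ranges did not overlap. For SHC1 the log2 fold change was -0.50 ± 0.34 (SE), and -0.17 ± 0.07 without knockout library 2. The end of SHC1 is overlapped by PYGO2 on the same strand and by an antisense gene, and reads that fall in more than 1 gene stay out of the unstranded count. The unstranded count held 72.7, 23.2 and 72.8% of the reads assigned by the strand-specific counts together in knockout libraries 1 to 3, and 81.7, 80.2 and 80.8% in vector libraries 1 to 3. With the strand-specific counts added together, the log2 fold change of SHC1 was 0.05 with all 6 libraries and -0.03 without knockout library 2. The lower SHC1 range in the knockout libraries was thus not seen with that count. That count also credits SHC1 with reads in the overlap that may come from the antisense gene. Which count lies closer to SHC1 itself was not tested.

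**Figure D2:**
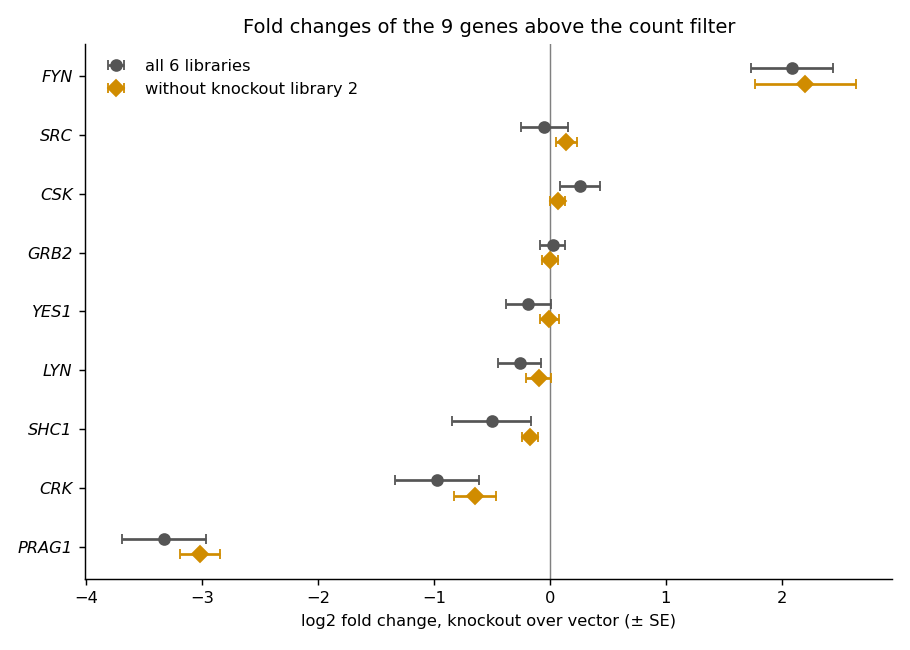
Log2 fold changes of knockout over vector (horizontal axis, error bars ± SE) for the 9 genes above the count filter, with all 6 libraries (circles) and without knockout library 2 (diamonds). PRAG1 lies at -3.33 and -3.01, FYN at 2.09 and 2.20 and CRK at -0.97 and -0.65, and the other 6 lie between -0.50 and 0.26.

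Counted together, 9 of the 10 genes passed the filter on low counts, which PEAK1 did not. In the edgeR fit of all 6 libraries 1 of 9, PRAG1, had an adjusted p under 0.05, where 0.596% of all 15783 tested genes did, 0.418% higher and 0.177% lower in the knockout libraries. Leaving out knockout library 2, it was 3 of 9, PRAG1 and CRK lower and FYN higher, where 19.1% of 16339 tested genes passed, 10.2% higher and 8.88% lower. The library ranges of 1 gene (FYN) were higher and those of 3 (PRAG1, CRK and SHC1) lower without overlap, where 39.4% of all tested genes had ranges that did not overlap. Because the same contrast chose the genes, nothing is read from these counts. When knockout library 1 or 3 or any vector library was left out of the 6-library fit, 0 of the 9 passed. Only 4 to 13 of all 16302 to 16353 tested genes passed in these fits, and the log2 fold change of PRAG1 lay between -3.58 and -3.23. DESeq2, run without the edgeR filter, called 2 of 10 (PRAG1 and FYN) with all 6 libraries, where it called 712 of 32640 genes with any read. Its own filtering can leave genes with few reads without an adjusted p, so 712 of 32640 may understate its share. Without knockout library 2, the call of CRK was lost when knockout library 1 or 3 or vector library 1 was also left out, and with DESeq2. Knockout library 2 was the lowest of the 6 libraries for 6 of the 10 genes (PRAG1, SRC, YES1, LYN, CRK and SHC1) and the highest for 3 (PEAK1, CSK and GRB2). The part of that library in the differences of PRAG1 and CRK is shown by the values without it.

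The order of the 10 genes by level, in CPM per kilobase of exon, differed between the groups in the place of PRAG1 alone. In the knockout libraries the order was CSK (37.6), GRB2 (28.1), SHC1 (17.6), YES1 (10.1), SRC (7.35), LYN (2.94), CRK (0.959), PRAG1 (0.687), FYN (0.239) and PEAK1 (0.0117). The ranges of SHC1 and YES1, of YES1 and SRC, and of CRK and PRAG1 overlapped there. In the vector libraries it was CSK (31.3), GRB2 (27.6), SHC1 (25.0), YES1 (11.5), SRC (7.60), PRAG1 (6.98), LYN (3.52), CRK (1.90), FYN (0.0554) and PEAK1 (0.00454), and only SRC and PRAG1 overlapped as neighbours. PRAG1 thus stood beside SRC in the vector libraries and beside CRK in the knockout libraries.

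Ratios taken inside each library need no scaling between libraries. For every 100 reads of CSK, its binding partner, PRAG1 had 2.86, 0.766 and 2.75 reads in knockout libraries 1 to 3 and 18.4, 26.3 and 27.2 in vector libraries 1 to 3. PRAG1 made up 0.846, 0.344 and 0.770% of the reads of the 10 genes in the knockout libraries and 4.76, 6.92 and 6.88% in the vector libraries. Neither ratio overlapped between the groups, and knockout library 2 was the lowest in both.

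The tested genes on either side of PRAG1 on chromosome 8 showed no called difference. The 5 nearest on each side, 315 kb (CLDN23) to 3323 kb (CSMD1) away, had log2 fold changes between -0.95 and 0.35 with all 6 libraries (median -0.20) and between -0.61 and 0.20 without knockout library 2 (median -0.00). None of the 10 passed the edgeR test in either fit, where 0.596% and 19.1% of all tested genes did. DESeq2 and limma-voom called 0 of the 10 in both. At an unadjusted edgeR p under 0.05 there were 0 with all 6 libraries, beside 3420 of all 15783 tested genes. Without knockout library 2 there were 2, beside 5176 of all 16339. ERI1 and TNKS were the lowest of the 10 neighbours, both at -0.95 with all 6 libraries (edgeR adjusted p = 0.365 and 0.243). ERI1, which encodes a 3′ exonuclease and lies 616 kb away, read 6.14, 0.629 and 6.10 CPM in the knockout libraries and 8.14, 7.78 and 9.18 CPM in the vector libraries. Without knockout library 2 its log2 fold change was -0.46 ± 0.17 (SE; edgeR adjusted p = 0.0684). TNKS, the gene of the poly-ADP-ribose polymerase tankyrase, had -0.61 ± 0.24 (SE; edgeR adjusted p = 0.0854) and overlapping ranges.

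**Figure D3:**
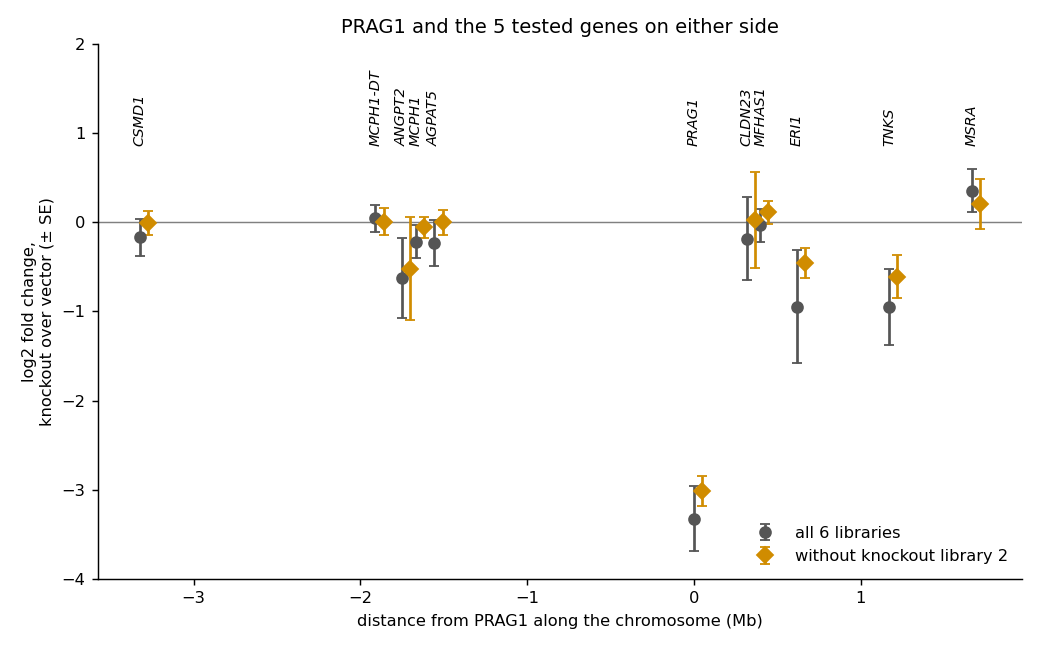
Log2 fold changes of knockout over vector (vertical axis, error bars ± SE) of PRAG1 and the 5 tested genes on either side, against distance from PRAG1 in megabases, with all 6 libraries (circles) and without knockout library 2 (diamonds). PRAG1 lies at -3.33 and -3.01, and the 10 neighbours lie between -0.95 and 0.35.

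The protein-coding genes whose centred log2 CPM followed that of PRAG1 most closely over the 6 libraries, among 9762 with a mean of at least 5 CPM, were THBS1, STARD4, LRIG1, LPCAT1 and USP54. Their root mean square differences from PRAG1 were 0.728, 0.818, 0.930, 0.942 and 0.948 log2 units. THBS1, which encodes the matrix protein thrombospondin 1, read 16.8, 7.49 and 15.2 CPM in the knockout libraries and 55.6, 46.2 and 52.5 CPM in the vector libraries. STARD4, which encodes a cholesterol transfer protein, read 3.16, 2.08 and 1.60 CPM in the knockout libraries and 11.2, 8.45 and 11.2 CPM in the vector libraries. For both, every knockout library lay below every vector library. LRIG1, LPCAT1 and USP54 had log2 fold changes of -1.48, -1.45 and -1.43 with all 6 libraries, and of -1.03, -1.02 and -0.95 without knockout library 2. In knockout libraries 1 to 3, LRIG1 read 4.63, 0.755 and 4.81 CPM, LPCAT1 33.7, 5.98 and 24.3, and USP54 57.0, 7.49 and 47.1. Knockout library 2 thus lay far below knockout libraries 1 and 3 for each of them. These genes were picked for their likeness, and their values are a description.

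Around the 10 genes, 78 other genes of the same pathways were followed in 6 lists, of which 65 passed the filter on low counts. With all 6 libraries 0 of the 65 passed the edgeR test at an adjusted p under 0.05, beside 0.596% of all tested genes. DESeq2 and limma-voom called 0. An unadjusted edgeR p under 0.05 was reached by 15 of the 65, beside 3420 of all 15783 tested genes. Without knockout library 2, 5 rose, 9 fell and 51 did not pass. These 14 are 21.5% of the 65, close to the 19.1% of all tested genes. The median log2 fold change of the 65 was -0.22 with all 6 libraries and -0.14 without knockout library 2, where that of all tested genes was 0.0004 and -0.01. Knockout library 2 was the lowest of the 6 for 44 of these 65 genes, or 67.7%, against 39.6% of all tested genes.

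The focal adhesion and cytoskeletal substrates of the Src family had 17 tested genes, more than any other list. Of these, 1 rose, 5 fell and 11 did not pass without knockout library 2, which is 35.3% called beside 19.1% of all tested genes, a share given as a description (median log2 fold change -0.16, and -0.29 with all 6 libraries). Vinculin, VCL, which ties integrin adhesions to actin, read 81.1, 46.8 and 73.0 CPM in the knockout libraries and 116, 101 and 112 CPM in the vector libraries. Its log2 fold change was -0.52 ± 0.08 (SE; edgeR adjusted p = 0.000152) without knockout library 2 and -0.71 with all 6 libraries (edgeR adjusted p = 0.180). Cortactin, CTTN, the actin-branching Src substrate, read 97.2, 41.2 and 94.6 CPM in the knockout libraries and 132, 131 and 122 CPM in the vector libraries. Its log2 fold change was -0.43 ± 0.07 (edgeR adjusted p = 0.000267) without knockout library 2 and -0.72 with all 6 libraries (edgeR adjusted p = 0.230). For both genes every knockout library lay below every vector library. Under 13 alternatives to the fit without knockout library 2, VCL had an adjusted p of at most 0.0160 and CTTN of at most 0.0189, and each of the other 9 named pathway genes lost its call under 1 to 5 of them. PTK2B, a relative of focal adhesion kinase, fell by 0.31 ± 0.07 (edgeR adjusted p = 0.00498), and the integrin subunit gene ITGAV by 0.49 ± 0.12 (edgeR adjusted p = 0.00831), on the log2 scale without knockout library 2. With all 6 libraries the log2 fold change was -0.29 for PTK2B (edgeR adjusted p = 0.213) and -0.60 for ITGAV (edgeR adjusted p = 0.184). STAT3 also fell and ZYX (zyxin) rose in the fit without knockout library 2.

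Of the Ras and ERK cascade, which GRB2 and SHC1 feed, 2 of 12 tested genes rose, 1 fell and 9 did not pass without knockout library 2 (median log2 fold change -0.14, and -0.24 with all 6 libraries). The share called was 25%, beside 19.1% of all tested genes. MAPK3, the gene of the kinase ERK1, read 94.5, 152 and 87.9 CPM in the knockout libraries and 66.2, 79.7 and 66.8 CPM in the vector libraries, and its log2 fold change without knockout library 2 was 0.36 ± 0.08 (SE; edgeR adjusted p = 0.00537). HRAS, a Ras GTPase gene, read 119, 309 and 118 CPM in the knockout libraries and 92.6, 109 and 90.6 CPM in the vector libraries, with 0.27 ± 0.08 (edgeR adjusted p = 0.0203). Knockout library 2 lay far above the other libraries for both, and with it the log2 fold changes were 0.65 for MAPK3 (edgeR adjusted p = 0.209) and 0.90 for HRAS (edgeR adjusted p = 0.231).

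Among the partners of the PEAK family, 1 of 7 tested genes rose, 1 fell and 5 did not pass without knockout library 2. This share of 28.6% rests on few genes and stands beside 19.1% of all tested genes. RHOA, the GTPase gene linked to pragmin signalling, read 179, 257 and 168 CPM in the knockout libraries and 141, 150 and 127 CPM in the vector libraries, and its log2 fold change without knockout library 2 was 0.31 ± 0.07 (SE; edgeR adjusted p = 0.00557). ASAP1, which encodes an Arf GTPase-activating protein that binds PEAK1, read 23.3, 16.9 and 24.1 CPM in the knockout libraries and 28.9, 28.4 and 32.4 CPM in the vector libraries, with -0.34 ± 0.11 (edgeR adjusted p = 0.0280). For neither gene did the knockout and vector ranges overlap. With all 6 libraries the values were 0.53 for RHOA (edgeR adjusted p = 0.211) and -0.48 for ASAP1 (edgeR adjusted p = 0.210). The GTPase gene RND2 did not pass the filter on low counts.

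Of the genes that recruit CSK or remove phosphate from Src-family kinases, 2 of 10 fell and 8 did not pass without knockout library 2. That is 20% called, close to the 19.1% of all tested genes. The 2 that fell were the tyrosine phosphatase genes PTPN1, at -0.31 ± 0.09 on the log2 scale (SE; edgeR adjusted p = 0.0155), and PTPN11, the SHP2 gene, with -0.32 ± 0.09 (edgeR adjusted p = 0.0178). PTPN11 read 108, 66.2 and 105 CPM in the knockout libraries and 146, 111 and 139 CPM in the vector libraries, so libraries 1 and 3 of the knockout lay just below the lowest vector library. With all 6 libraries both were at -0.51 (edgeR adjusted p = 0.223 for PTPN1 and 0.229 for PTPN11). Of 15 tested SH2 and SH3 adaptors and exchange factors, 1 rose and 14 did not pass without knockout library 2. That is 6.67% called, below the 19.1% of all tested genes. The riser was SH3KBP1, which encodes the CBL-binding adaptor CIN85, at 14.6, 13.5 and 13.2 CPM in the knockout libraries and 11.1, 7.45 and 7.14 CPM in the vector libraries (log2 fold change 0.69 ± 0.17, SE; edgeR adjusted p = 0.00841 without knockout library 2, and 0.69 with an edgeR adjusted p of 0.184 with all 6). None of the 4 tested kinases related to Src or CSK passed by edgeR, DESeq2 or limma-voom in either fit, and 0 had an unadjusted edgeR p under 0.05.

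**Figure D4:**
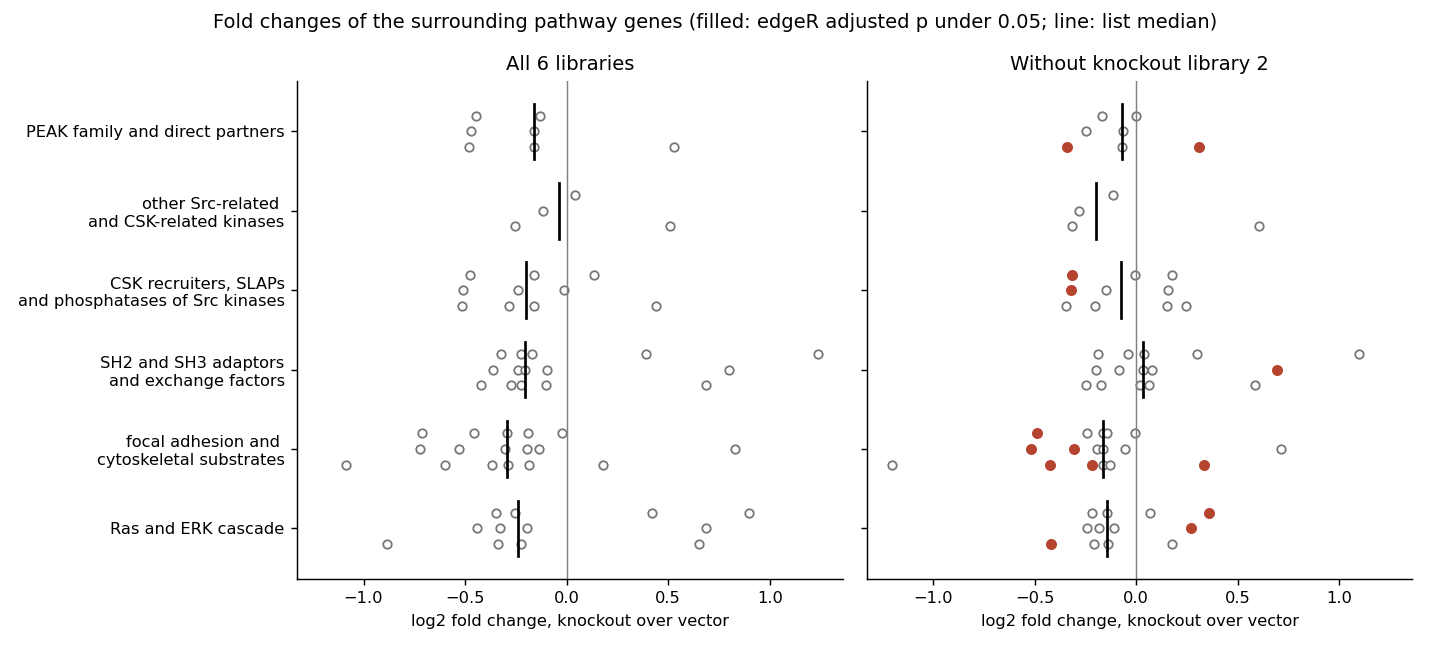
Log2 fold changes of knockout over vector (horizontal axis) of the tested genes in each of the 6 pathway lists, with all 6 libraries (left) and without knockout library 2 (right); filled points have an edgeR adjusted p under 0.05 and lines are list medians. With all 6 libraries 0 points are filled. Without knockout library 2 it is 14, or 21.5% beside 19.1% of all tested genes, among them 6 of 17 focal adhesion genes.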

How the data were processed

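RNA-seq was analysed from 3 CDK12 knockout and 3 vector libraries, grouped and numbered by their titles. Each deposited file holds the authors' raw read counts per gene, 62696 gene rows after 4 summary rows, which were left out of library sizes and tests. The submitters' processing notes name FastQC, STAR and GRCh38, without tool versions or a gene annotation. The unstranded column was used because the sums of the stranded columns had ratios of 1.02 to 1.04. It leaves out reads in overlapping genes and cannot tell a gene from an antisense partner. Ambiguous reads were 12.2, 14.4 and 12.2% of all reads in knockout libraries 1 to 3, and 11.6, 11.2 and 11.2% in vector libraries 1 to 3.

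Counts were fitted with edgeR 4.0.16 under R 4.3.3, using its robust quasi-likelihood test after filterByExpr and TMM scaling, without a replicate block, with Benjamini-Hochberg adjustment over all tested genes and a threshold of 0.05. The fit was made with all 6 libraries (15783 genes) and without knockout library 2 (16339 genes). CPM use TMM-scaled library sizes. DESeq2 1.42.0, limma-voom (limma 3.58.1), other filters, scalings and counting columns, a replicate block and leaving out each library were alternatives. Data were simulated with known fold changes in 100 genes per fold, all of them genes with many reads. The fit of all 6 libraries, on 15783 genes, called 46% of the 2-fold and 90% of the 4-fold changes, with 10 false calls. The fit without knockout library 2, on 16339 genes, called 98% and 100%, with 19 false calls. The simulation covers neither genes with few reads, such as PEAK1 and FYN, nor a library that stands apart across genes.

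The 10 genes and the 6 pathway lists were chosen with earlier results of these data known. Named besides the 10 genes were CDK12, up to 4 called genes per list with the smallest adjusted p without knockout library 2, 5 tested neighbours of PRAG1 on each side, and the 5 genes most like it. Some genes of the lists are counted but not reported here by name. Coordinates and exonic lengths come from GENCODE 29 (GRCh38), which matched 15250 of 15783 tested genes. Counting error limits precision most where counts are low, as for PEAK1 and FYN.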

Additional observations from a re-analysis of the deposited data

How the results depend on the processing

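The log2 fold change of PRAG1 ran from -3.58 to -3.01 over 14 alternatives to the fit of all 6 libraries and from -3.16 to -2.90 over 13 without knockout library 2. That of FYN ran from 1.94 to 2.28 and from 2.06 to 2.40, and that of CRK from -1.23 to -0.65 and from -0.73 to -0.57. With all 6 libraries 94 genes were called; DESeq2 called 712, no filter on low counts gave 363 and leaving out 1 library gave 4 to 3123, the highest without knockout library 2. Leaving out 1 library gave 0 to 14 called pathway genes, against 0. Without knockout library 2, 3123 genes and 14 pathway genes were called, and leaving out a further library gave 1134 to 4703 and 3 (without knockout library 1) to 26 (without vector library 2). Leaving out knockout library 1 or 3 there leaves 1 knockout library, assumed to vary like the vector group. The replicate numbers share only a number: deviations of same-numbered libraries from their group mean correlated at 0.135, 0.194 and 0.0841. Each knockout library correlated best with its own number, but for library 3 vector library 1 was close, at 0.0624. Deviations from a group mean depend on each other, so these matches are not separate evidence and no pairing is read from them. A replicate block gave 5 called genes with all 6 libraries, 0 of them among the 10 genes described. Without knockout library 2 it gave 5540 genes, 27 pathway genes and 4 of the 10, adding SHC1. In that fit vector library 2 is alone in its block and adds nothing to the contrast. These counts therefore show no gain from pairing, and they lie near those without vector library 2. The causes of the shifts across alternatives were not tested. Depth limits PEAK1 and FYN, which rest on few reads.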
